A study of Mus musculus with 20 samples.

Results

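Transcripts of 10 genes of peritubular myoid cells and smooth muscle were followed in whole mouse testis from day 0 to day 35 after birth. The members are Acta2, Actg2, Myh11, Cnn1, Tagln, Des, Mylk, Tpm1, Tpm2 and Lmod1, and every probe set that the array's annotation assigns to 1 of these symbols was taken, 22 of the 45101 probe sets on the array. None of the 22 is assigned to a further gene. The study hybridised total RNA of testis to 20 single-channel arrays, 2 for each of 10 days: days 0, 3 and 6, then days 8, 10 and 14, then days 18 and 20, and at last days 30 and 35. The labels give only the species and the day, with no strain, genotype or treatment, and do not say whether the arrays of a day came from separate animals or from pools. The p-values below therefore measure only the spread between these arrays, which may be technical.

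Peritubular myoid cells are flat contractile cells that wrap the seminiferous tubules, lay down the tubule wall together with Sertoli cells, and move sperm and fluid along the tubule. They share a contractile apparatus with vascular smooth muscle: filaments of smooth muscle actin carry tropomyosin, smooth muscle myosin pulls on them once myosin light chain kinase has phosphorylated its light chain, and calponin and transgelin bind the actin. Serum response factor and its partners of the myocardin family switch on many of these genes through an element known as the CArG box. None of the 10 genes is expressed in myoid cells alone, since vessels and the capsule of the testis also hold smooth muscle.

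Values are intensities on the authors' linear scale, which has the same trimmed mean on all 20 arrays. Differences are given on the log2 scale after adding 7.84 to each intensity, with their standard error (SE) from a limma fit over all 20 arrays. A probe set was called where its Benjamini-Hochberg adjusted p over 37292 tested probe sets was under 0.05 and its difference at least 2-fold (1 on the log2 scale). Day means are given ± SD with n = 2. The number of arrays limits the precision throughout. Shares over all probe sets or genes below refer to calls with the 2-fold minimum. No such share is given for counts at an unadjusted p under 0.05 or for arrays that do not overlap. The lowest values of the arrays stepped up between days 14 and 18: the 20th percentile of intensity lay between 5.12 and 6.65 on the 12 arrays of days 0 to 14 and between 9.41 and 12.9 on the 8 arrays of days 18 to 35. Comparisons across that step cannot tell it apart from age. The labels of replicate 2 of day 18 disagree, its source naming day 0. Over all probe sets that array correlated with replicate 1 of day 18 at r = 0.959 and with each array of day 0 at 0.825, and it was kept under its title. Day 18 is neither the earlier nor the later day in the 5 tested comparisons between 2 days below. Its arrays do enter the spread behind their SE and p, the time course tests and the correlations over day means. Without replicate 2 of day 18 the time course called the same number of member probe sets, 17. In bulk RNA, fewer cells of a type and less of a transcript in each cell cannot be told apart.

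RefSeq promoter windows (GRCm38.p6, from 250 bases before to 50 bases after the gene start) were at hand for 7 of the 10 members: Acta2, Cnn1, Des, Mylk, Tpm1, Tpm2 and Lmod1. The windows of Acta2, Tpm2 and Mylk are shown because the main probe sets of these genes followed the median course of the members most closely (r from 0.98 to 0.99 over the 10 day means). Each is written 5′ to 3′ on the strand of the gene. Capitals mark matches to the CArG box, searched on both strands as CC, 6 bases that are each A or T, and GG, with at most 1 of the 6 core bases allowed to be C or G.
Acta2, chr19:34255324-34255623, minus strand: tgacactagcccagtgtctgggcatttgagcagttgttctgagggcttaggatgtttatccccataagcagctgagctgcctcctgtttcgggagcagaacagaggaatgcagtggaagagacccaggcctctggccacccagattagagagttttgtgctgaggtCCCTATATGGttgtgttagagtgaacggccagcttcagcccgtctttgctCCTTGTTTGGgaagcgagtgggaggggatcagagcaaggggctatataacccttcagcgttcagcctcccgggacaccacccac
Tpm2, chr4:43523505-43523804, minus strand: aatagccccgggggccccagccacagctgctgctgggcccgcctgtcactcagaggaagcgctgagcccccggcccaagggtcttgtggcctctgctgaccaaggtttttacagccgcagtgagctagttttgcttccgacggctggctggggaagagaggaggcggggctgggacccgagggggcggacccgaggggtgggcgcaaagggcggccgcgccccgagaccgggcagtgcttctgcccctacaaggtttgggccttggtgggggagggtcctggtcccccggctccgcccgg
Mylk, chr16:34784700-34784999, plus strand: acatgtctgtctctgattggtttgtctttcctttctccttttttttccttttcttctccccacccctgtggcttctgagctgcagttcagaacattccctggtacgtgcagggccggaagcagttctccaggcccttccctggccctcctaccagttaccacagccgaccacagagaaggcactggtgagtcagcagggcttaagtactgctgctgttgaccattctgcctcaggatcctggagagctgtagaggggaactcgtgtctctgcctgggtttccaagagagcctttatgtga
The Acta2 window held 2 such matches, CCCTATATGG starting 84 bases and CCTTGTTTGG starting 34 bases before the gene start, each with 1 deviating core base. None of the other 6 windows held a match, and no window of the 7 held an exact one. Among all 32851 windows of this length 9.98% held a match with at most 1 deviation and 1.63% an exact one. These counts describe the letters of a short window.

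Acta2, alpha smooth muscle actin, had a strong signal: its main probe set (1416454_s_at) lay at or above percentile 97.4 of every array. Its intensities, replicate 1 then replicate 2, were 3559 and 3596 on day 0, 4748 and 4249 on day 3, 4653 and 4418 on day 6, 4994 and 5118 on day 8, 4477 and 4829 on day 10 and 4168 and 4729 on day 14. They were 3468 and 3485 on day 18, 3031 and 3003 on day 20, 1789.8 and 1569 on day 30 and 1669 and 1527 on day 35 afterwards. The arrays of day 8 were the highest pair, and every array from day 18 on read less than the arrays of day 0. The name of this probe set marks it as one whose probes can match more than 1 transcript, so related actin transcripts may add to it.

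Actg2, gamma smooth muscle actin, the actin typical of enteric muscle, took another course. Its probe set 1422340_a_at read 54.1 and 58.7 on day 0, 93.1 and 89.4 on day 3, 129 and 119.9 on day 6, 129.6 and 139.8 on day 8, 187 and 196 on day 10 and 186 and 228 on day 14. It then read 191 and 162 on day 18 and 149 and 128 on day 20 before reaching 1100.4 and 1231 on day 30 and 1439.8 and 1382 on day 35. Its 4 arrays of days 30 and 35 lay between 1100.4 and 1440 and did not overlap with any earlier array, the highest of which was 228. The mean of day 35 was 25.0 times that of day 0. Summed over its 10 listed genes, the signal of meiotic and later germ cell markers stood between 14089.6 and 14468 on the arrays of day 20, between 59970.1 and 61450.5 on those of day 30 and between 56554 and 63020.4 on those of day 35. Their part in the Actg2 values was not tested.

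**Figure D1:**
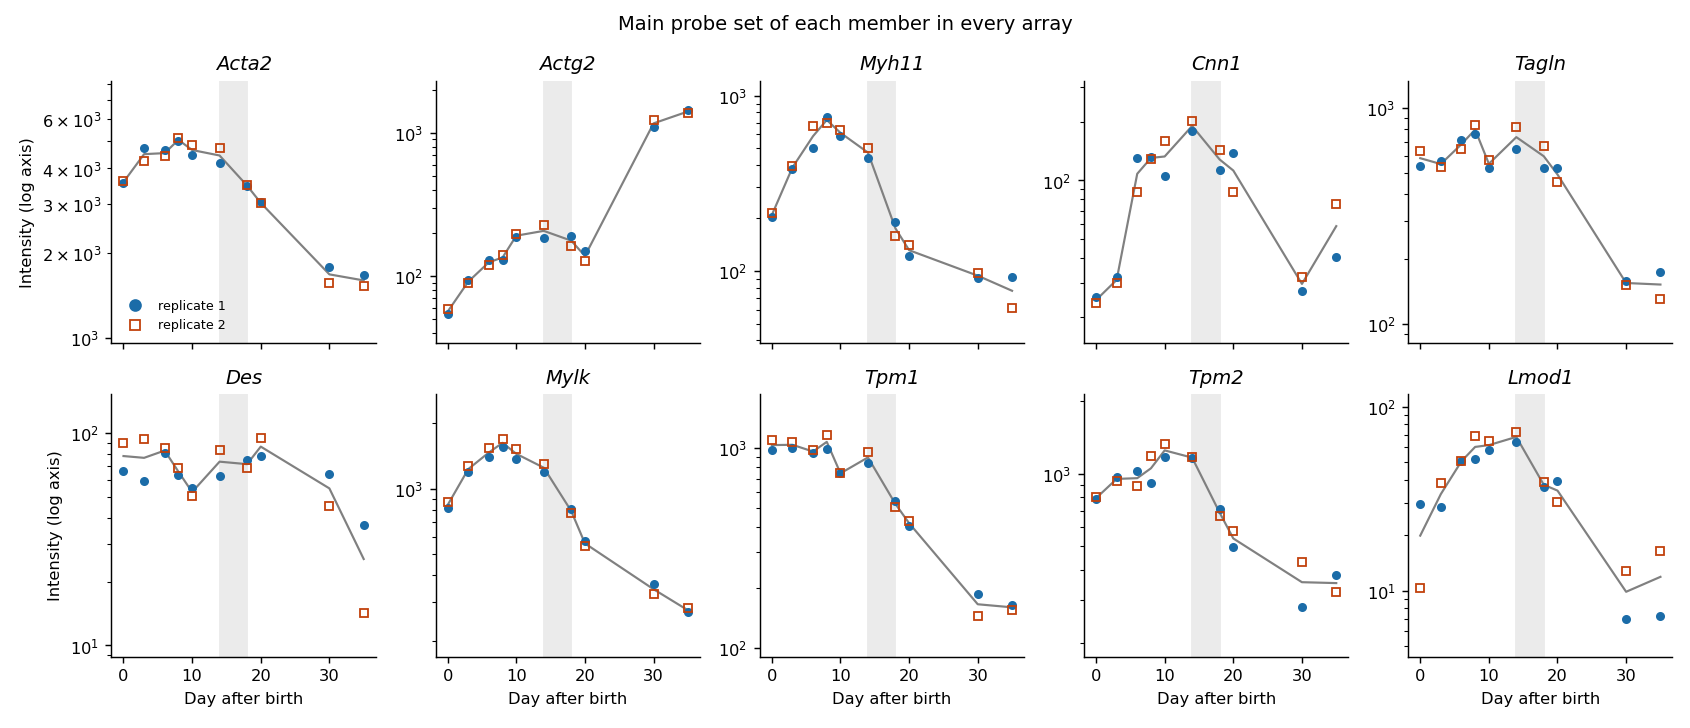
Intensity of the main probe set of each of the 10 members (log axis, a separate scale in each panel) against day after birth, with filled circles for replicate 1, open squares for replicate 2 and a line through the means of the 2 arrays. The grey band marks the interval from day 14 to day 18, in which the lowest values of the arrays stepped up. 9 of the 10 panels end below their peak of days 0 to 20, while Actg2 ends at its highest mean, 1411.

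Myh11, the smooth muscle myosin heavy chain, had the widest range among the other main probe sets, 9.43 times between its highest and lowest day means. Its main probe set 1448962_at read 203 and 213 on day 0, 379 and 398 on day 3, 502 and 670.0 on day 6, 756 and 694 on day 8, 586 and 639 on day 10 and 441 and 504 on day 14. It read 191 and 159 on day 18, 121 and 141 on day 20, 90.5 and 97.0 on day 30 and 92.1 and 61.7 on day 35 later. The arrays of day 8 were the highest pair, and those of day 18 already lay below those of day 0. Mylk, the kinase that phosphorylates the myosin light chain, followed (1425506_at) with 817 and 864 on day 0, 1185 and 1272 on day 3, 1391 and 1537 on day 6, 1554 and 1689.9 on day 8, 1360.5 and 1527 on day 10 and 1194 and 1300.4 on day 14. It had 806 and 771 on day 18, 574 and 545 on day 20, 363 and 327 on day 30 and 270.1 and 282 on day 35 thereafter. Its highest mean was that of day 8, and the arrays of days 18 to 35 all lay below those of day 0.

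The actin-binding proteins fell into different courses. Cnn1, calponin, which binds actin and restrains myosin, was low at birth and read (1417917_at) 25.5 and 23.6 on day 0, 32.1 and 30.0 on day 3, 129.6 and 86.8 on day 6, 131 and 129 on day 8, 105 and 160.0 on day 10 and 179 and 201 on day 14. It read 113 and 143 on day 18, 138 and 87.1 on day 20, 27.2 and 32.1 on day 30 and 40.7 and 76.2 on day 35 after that. Day 14 was its highest day, and the arrays of days 0 and 3 did not overlap with those of days 6 to 20. Tagln, transgelin, an actin-binding marker of smooth muscle (1423505_at), read 540.3 and 633 on day 0, 571 and 531 on day 3, 713 and 648 on day 6, 757 and 834 on day 8, 531 and 574 on day 10 and 649 and 819 on day 14, and 527 and 671 on day 18, 529 and 457 on day 20, 158 and 153 on day 30 and 175 and 131 on day 35. Its arrays stayed between 457 and 834 up to day 20, and those of days 30 and 35 lay between 131 and 175. Lmod1, leiomodin, which starts actin filaments in smooth muscle, was dim throughout (1427485_at), at 29.5 and 10.3 on day 0, 28.4 and 38.5 on day 3, 50.4 and 50.4 on day 6, 51.6 and 69.1 on day 8, 58.4 and 65.1 on day 10 and 64.1 and 72.7 on day 14. Its later values were 36.3 and 38.8 on day 18, 39.5 and 30.4 on day 20, 6.98 and 12.7 on day 30 and 7.25 and 16.5 on day 35. The 2 arrays of day 0 lay further apart than those of days 6 to 20 relative to their level, and the values of days 30 and 35 lay near the added constant of 7.84.

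Tpm1 and Tpm2 encode tropomyosins, which lie along the actin filament. The main probe set of Tpm1 (1423721_at) read 972 and 1093 on day 0, 997 and 1075 on day 3, 945 and 972 on day 6, 987 and 1156 on day 8, 744 and 747 on day 10 and 837 and 955 on day 14, and its arrays of days 0 and 8 overlapped. It read 543 and 505 on day 18, 407 and 433 on day 20, 186 and 144 on day 30 and 163 and 155 on day 35, so that the arrays of days 30 and 35 lay between 144 and 186. That of Tpm2 (1419738_a_at) read 782 and 800.3 on day 0, 968 and 932 on day 3, 1028 and 885 on day 6, 917 and 1185 on day 8, 1167 and 1324 on day 10 and 1158 and 1168 on day 14. It read 714 and 666 on day 18, 498 and 581 on day 20, 280.3 and 432 on day 30 and 381 and 325 on day 35 at the later days, with its highest mean on day 10. Des, desmin, the intermediate filament protein of muscle, was weak: the arrays of its main probe set (1426731_at) lay between 14.2 and 95.3, with a median of 67.5. It had 78.2 ± 16.5 on day 0, 52.9 ± 3.20 on day 10, 86.6 ± 12.3 on day 20 and 25.6 ± 16.1 on day 35. Both arrays of day 35, at 37.0 and 14.2, lay below every other array.

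Over the time course, 17 of the 19 tested member probe sets passed the moderated F test of limma with day means at least 2-fold apart, beside 73.1% of all probe sets tested. All 10 main probe sets were among them, where 77.3% of the main probe sets of all genes passed, so most genes tested passed. The adjusted p ran from 3.29e-16 for Actg2 to 0.00245 for Des. The 2 that did not pass were further probe sets of Acta2 and Des. The 3 that were not tested, 1 each of Acta2, Myh11 and Tpm1, exceeded the 40th percentile of their array on at most 1 array. All main probe sets exceeded it on 15 to 20 arrays. Within days 0 to 14 alone, on 1 side of the step in low values, 6 of the 19 passed beside 17.5% of all. Within days 18 to 35, 13 passed beside 31.3%. This split by days was chosen after seeing the data.

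Between days 0 and 8 the cords hold early germ cells and dividing Sertoli cells. Cnn1 rose by 2.10 ± 0.27 (SE), from 24.5 ± 1.32 to 130.4 ± 1.47, and Myh11 by 1.76 ± 0.16, from 208 ± 6.63 to 725 ± 44.0. Lmod1 rose by 1.38 ± 0.35 and Actg2 by 1.15 ± 0.13, the latter from 56.4 ± 3.21 to 135 ± 7.21. A further probe set of Mylk rose by 1.28 ± 0.12. Its main probe set stood at 0.94 ± 0.088, under the 2-fold minimum, as did Acta2 (0.50 ± 0.076, limma adjusted p = 0.00011) and Tagln (0.44 ± 0.14, adjusted p = 0.044). For all 3 the arrays of day 8 lay above those of day 0. Tpm2 (0.39 ± 0.15), Tpm1 (0.051 ± 0.11) and Des (−0.21 ± 0.30) did not pass either criterion.

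In all 5 of 19 tested member probe sets rose between days 0 and 8, beside 2.45% of all probe sets, and 1 fell, a probe set of Tpm1, beside 2.42%. The median over the 10 main probe sets was 0.72, and that over the main probe sets of all genes −0.0066. The limma adjusted p of the 5 rises ran from 2.01e-07 (Myh11) to 0.0091 (Lmod1). Setting every array to a common median moved the share of higher among all calls from 50.3% to 61.7%. The call of Lmod1 ended without day 0 replicate 2 (0.86) or day 8 replicate 2 (1.19) and with values floored at the pooled median (0.79). The main probe set of Mylk was called under quantile normalization (1.0), with a common median (1.05) and without day 8 replicate 1 (1.001).

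Between days 8 and 14, when germ cells enter meiosis, no member probe set rose, beside 3.86% of all, and 1 fell, beside 2.1%. By limma at an unadjusted p under 0.05, 1 stood higher and 6 lower, a looser threshold to which the shares 3.86% and 2.1% do not apply. The faller was a probe set of Tpm1, 1456623_at, and its call ended without replicate 1 or 2 of day 8 or replicate 2 of day 14. Actg2 had 0.58 ± 0.13 (adjusted p = 0.0035) and Cnn1 0.51 ± 0.27 (adjusted p = 0.252), while Myh11 had −0.61 ± 0.16 (adjusted p = 0.0105) and Mylk −0.38 ± 0.088 (adjusted p = 0.00431). The arrays of the 2 days did not overlap for these 4 genes. Tagln (−0.12 ± 0.14), Tpm2 (0.16 ± 0.15), Des (0.13 ± 0.30) and Lmod1 (0.17 ± 0.35) had arrays that overlapped. Acta2 stood at −0.19 ± 0.076 and Tpm1 at −0.26 ± 0.11, with no overlap and neither call. The median over the main probe sets was 0.0039, beside −0.017 over all genes.

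From day 14 to day 20, across the step in low values, the heavy chain of myosin fell furthest among the main probe sets. Myh11 fell by 1.79 ± 0.16, from 473 ± 44.0 to 131 ± 13.7. Mylk fell by 1.14 ± 0.088, Tpm2 fell by 1.10 ± 0.15 and Tpm1 fell by 1.08 ± 0.11. The other main probe sets stood at −0.56 ± 0.076 for Acta2, −0.56 ± 0.14 for Tagln, −0.55 ± 0.13 for Actg2, −0.75 ± 0.27 for Cnn1, −0.84 ± 0.35 for Lmod1 and 0.22 ± 0.30 for Des. Only Des of the 10 had arrays that overlapped between these days, and how often other genes overlapped is not given.

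Of 19 tested member probe sets 8 fell between days 14 and 20, beside 12% of all, and none rose, beside 14.7%. By limma at an unadjusted p under 0.05, 1 stood higher. The median of the main probe sets was −0.79, and that of all genes 0.0078. Scaling the arrays to 1 median moved the median over all probe sets from −0.035 to −0.21, and the share of higher among all calls from 54.9% to 39.6%. That setting also called Lmod1 (−1.03). The calls of Tpm1 and Tpm2 stood close to the 2-fold minimum: Tpm1 had −0.98 without day 14 replicate 2, and Tpm2 −0.99 without day 20 replicate 1. Without that last array Cnn1 was called (−1.06). Averaged with their dimmer probe sets, Myh11 (−0.92), Tpm1 (−0.67) and Tpm2 (−0.51) were no longer called.

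Between days 20 and 35 spermatids appear and grow in number. Actg2 rose by 3.28 ± 0.13 (limma adjusted p = 3.56e-13), from 138 ± 14.9 to 1411 ± 40.9, while Tagln fell by 1.65 ± 0.14, from 493 ± 51.2 to 153 ± 31.2. Tpm1 fell by 1.36 ± 0.11, Des fell by 1.58 ± 0.30 and Lmod1 fell by 1.15 ± 0.35. The differences of Mylk (−0.999 ± 0.088), Acta2 (−0.92 ± 0.076), Cnn1 (−0.88 ± 0.27), Myh11 (−0.73 ± 0.16) and Tpm2 (−0.60 ± 0.15) had an adjusted p of at most 0.0169 (limma) and missed the 2-fold minimum. For all 10 main probe sets the arrays of the 2 days did not overlap, but no share over all genes stands beside that count.

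Of the 19 tested probe sets 7 fell between days 20 and 35, beside 7.28% of all, and 2 rose, beside 6.71%. The median of the main probe sets was −0.96, and that of all genes −0.20. Both days lie on the same side of the step in low values. Several calls rested near the threshold. Acta2 was called under quantile normalization (−1.07), and Mylk without day 20 replicate 2 (−1.04), without day 35 replicate 2 (−1.03), with the smaller constant of 1.58 added (−1.01) and under the floor (−1.02). Cnn1 was called without day 20 replicate 2 (−1.19) or day 35 replicate 2 (−1.28). Lmod1 lost its call without day 20 replicate 1 (−0.996) or day 35 replicate 1 (−0.81), with array weights (limma adjusted p = 0.0543), in a fit on these days alone (0.122), with the larger constant of 21.6 added (−0.77) and under the floor (−0.10). Averaging with further probe sets ended the calls of Tpm1 (−0.96) and Des (−0.22). The same averaging moved Acta2 to 0.020 and Mylk to −0.23.

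Over the whole span, day 35 against day 0, 7 of the 10 main probe sets fell and 1 rose, beside 27.6% and 27.1% of the main probe sets of all genes. Tpm1 fell by 2.64 ± 0.11, Tagln fell by 1.90 ± 0.14, Mylk fell by 1.58 ± 0.088 and Des fell by 1.44 ± 0.30. Myh11 fell by 1.37 ± 0.16, Acta2 fell by 1.16 ± 0.076 and Tpm2 fell by 1.15 ± 0.15. Actg2 rose by 4.47 ± 0.13. Cnn1 stood at 0.98 ± 0.27 (adjusted p = 0.00398), just under the 2-fold minimum, from 24.5 ± 1.32 to 58.5 ± 25.1, and Lmod1 at −0.44 ± 0.35 with overlapping arrays. Over all probe sets of the members 11 of 19 fell, beside 28.1% of all, and 2 rose, beside 22.9%. The median of the main probe sets was −1.27, and that of all genes −0.034.

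The level of Cnn1 on day 35 rested on single arrays: the difference from day 0 was 1.38 without day 35 replicate 1 and 0.59 without day 35 replicate 2, and it was called in the first case, without day 0 replicate 1 (1.02), under quantile normalization (1.03) and with 1.58 added (1.14). Without day 35 replicate 1 the count of member probe sets that stood higher went from 2 to 5, through Cnn1 and the further probe sets of Des (1.55) and Acta2 (1.36). The call of Des ended without day 35 replicate 2 (−0.93). Averaged over all their probe sets, Acta2 (−0.06), Tpm2 (−0.65), Des (−0.16) and Myh11 (−0.79) were not called.

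**Figure D2:**
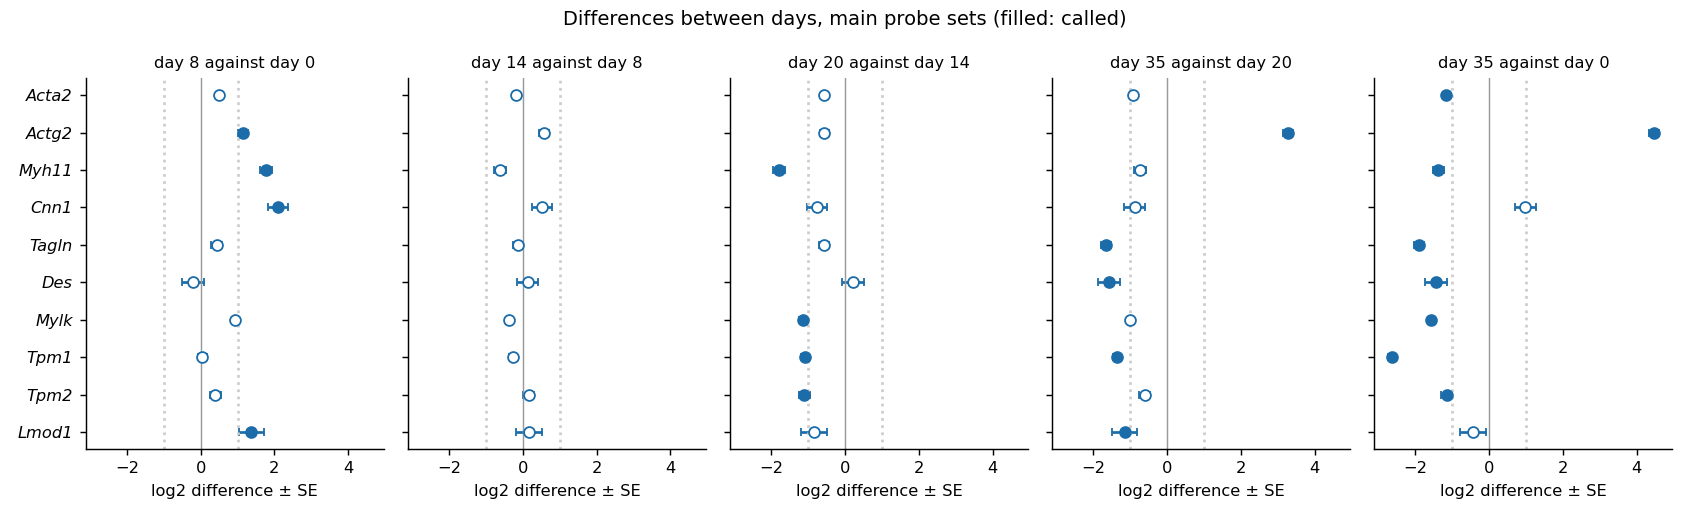
Difference in log2 intensity between the later and the earlier day for the main probe set of each member, in 5 comparisons on a common scale, with bars for the SE from limma. Filled points passed an adjusted p under 0.05 and the 2-fold minimum, which the dotted lines mark. On day 8 against day 0 the filled points are Actg2, Myh11, Cnn1 and Lmod1, all above 0, and on day 35 against day 0 Actg2 stands alone on the right at 4.47.

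Probe sets of 1 gene did not always move together. The name of a probe set says which transcripts its probes may match, and different probe sets can report different ends or splice forms of a gene. Tpm1 and Tpm2 are known for many splice forms made in muscle and other cells. For Tpm1, the probe set 1423049_a_at followed the main one, with r = 0.98 over the 10 day means. It went from 991 ± 0.836 on day 0 to 78.6 ± 8.10 on day 35, a difference of −3.53 ± 0.43 that was called, and its 2 arrays of day 30 read 85.1 and 7.87. Its fall after day 20 (−1.42 ± 0.43) was not called under quantile normalization (−1.26), without trend (limma adjusted p = 0.0602), without day 20 replicate 1 (−1.32) or without day 35 replicate 1 (−1.33). The Tpm1 probe set 1456623_at instead was highest at birth, with 207 and 195 on day 0, 166 and 111 on day 3, 134 and 64.2 on day 6, 78.7 and 58.9 on day 8, 70.5 and 61.0 on day 10 and 33.0 and 18.8 on day 14. It stayed between 5.07 and 32.0 from day 18 on. Its falls to day 8 (−1.46 ± 0.38) and from day 8 to day 14 (−1.20 ± 0.38) were called. The first of these calls ended without day 0 replicate 1 (−1.42), day 0 replicate 2 (−1.50) or day 8 replicate 2 (−1.27). The second ended without day 8 replicate 1 (−1.02), day 8 replicate 2 (−1.39) or day 14 replicate 2 (−0.90). The difference of this probe set from the main one was not tested.

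For Tpm2, the probe set 1425028_a_at ran with the main one (r = 0.93), from 281 ± 8.29 on day 0 to 545 ± 140.4 on day 14 and 146 ± 34.2 on day 35. Its fall after day 20 (−1.13 ± 0.16) was not called under quantile normalization (−0.93) or without day 35 replicate 2 (−0.90). The probe set 1449577_x_at peaked on day 3 (122 ± 2.87), before the main one, and stood at 38.2 ± 2.68 when the latter peaked. Its fall from day 14 to day 20 (−1.18 ± 0.45) rested on 1 array of day 20 that read 2.21, and without it stood at −0.087. That call also ended without replicate 1 (−1.31) or replicate 2 of day 14 (−1.05). Without the other array of day 20 the change to day 35 was called (1.53). The dim probe set 1419739_at ran against the others, from 25.3 ± 3.43 on day 14 to 55.4 ± 5.40 on day 20 and 70.9 ± 30.7 on day 35. It stepped up where the lowest values of the arrays did, was called from day 14 to day 20 when replicate 1 of day 14 (1.04) or day 20 replicate 1 (1.02) was left out, and its rise from day 0 to day 35 (1.13 ± 0.31) was not called with the floor (0.97), without day 0 replicate 1 (0.84) or without day 35 replicate 2 (0.72).

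All 3 probe sets of Mylk had their highest mean on day 8 or day 10. The probe set 1425505_at went from 548 ± 57.9 on day 0 to 1337 ± 119.8 on day 8 and 357 ± 4.84 on day 20, with r = 0.99 to the main one. The dim 1425504_at had 92.6 ± 5.86 on day 10 and 13.9 ± 4.04 on day 20, and then 49.8 ± 4.84 on day 35. Its rise after day 20 (1.42 ± 0.24) stood against a fall in 1425505_at (−1.11 ± 0.12, −0.90 and not called under quantile normalization), and the call of the rise ended with the floor (0.52). The further probe set of Des that was tested, 1426732_at, did not pass the time course test (limma adjusted p = 0.12), and 1 array of day 30 read 91.2 while its partner read 12.2. It ran against the main probe set of Des (r = −0.58). From day 20 to day 35 it had 1.15 ± 0.54, not called, where the main one had −1.58 ± 0.30. The further probe sets of Acta2 and Myh11 stayed at or under 38.0 and 19.7 on all 20 arrays.

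**Figure D3:**
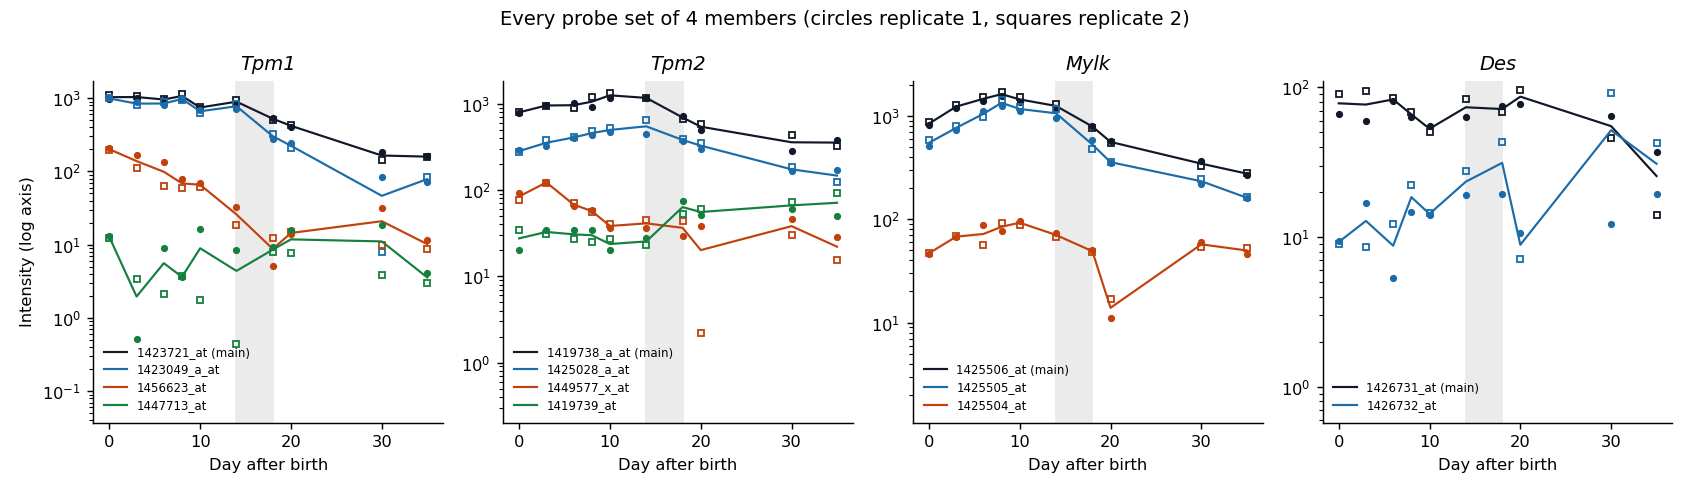
Intensity (log axis) of every probe set of Tpm1, Tpm2, Mylk and Des against day after birth, with circles for replicate 1, squares for replicate 2 and lines through the means. The main probe set of each gene is black, and the red Tpm1 probe set 1456623_at falls from a mean of 201 on day 0 while the black one stands at 1072 on day 8.

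Among themselves the main probe sets fell into a core and exceptions. Over the 10 day means, Acta2 (r = 0.99), Tpm2 (0.98), Mylk (0.98), Myh11 (0.95), Tagln (0.94), Tpm1 (0.94) and Lmod1 (0.92) followed the median course of the 10 members closely, while Des (0.58), Cnn1 (0.54) and Actg2 (−0.78) did not. Each member is itself part of that median course. Of the 45 pairs of members 12 correlated above 0.9, led by Acta2 with Mylk (0.98), and the lowest was Actg2 with Tpm1 (−0.91). The share of pairs of other genes above 0.9 is not given. These correlations are over 10 points from the same 20 arrays and describe them only. The median course, relative to the mean of each gene, was 0.029 on day 0, 0.70 on day 8, 0.62 on day 14, −0.32 on day 20 and −1.14 on day 35.

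Across 15006 other genes, the gene whose day means were most like that median course was Myl9 (r = 0.997). Myl9 encodes the regulatory light chain of smooth muscle myosin, the substrate of the Mylk kinase. It had 2086 ± 149 on day 0, 3392 ± 179 on day 8, 1923 ± 19.1 on day 20 and 1097 ± 22.9 on day 35. The next were Zfp942 (0.995), Abi1 (0.994), a regulator of actin assembly, Flii (0.993), an actin-severing protein of the gelsolin family, Cpe (0.993), a carboxypeptidase, the histone demethylase gene Kdm7a (0.992), the nuclear receptor coactivator gene Ncoa2 (0.992) and Thumpd1 (0.991). Abi1 went from 520.4 ± 40.7 on day 0 to 879.6 ± 24.8 on day 10 and 186 ± 2.16 on day 35. Cpe went from 2041 ± 45.0 to 3589 ± 296 and 821 ± 0.126 on the same days.

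Of 27 tested genes of the contractile apparatus that are not members, 1 rose and 2 fell from day 0 to day 8, beside 3.17% and 2.54% of the main probe sets of all genes. The riser was Itga8, an integrin of mesenchymal and smooth muscle cells (1.56 ± 0.22), and the fallers were Pdlim3 (−1.47 ± 0.25) and Pgm5 (−1.47 ± 0.42). Itga8 and Pgm5 were named after their values were seen. The median was 0.035, beside 0.72 for the members. From day 14 to day 20, 8 of the 27 fell and 1 rose, beside 11.2% and 17.9%, and from day 20 to day 35 7 fell and none rose (none also at an unadjusted p under 0.05 by limma), beside 7.18% and 8.32%. By day 35, 21 of 27 stood lower than on day 0 and 1 higher, beside 27.6% and 27.1%, with a median of −1.41. Pdlim3 went from 1710.0 ± 12.2 on day 0 to 79.7 ± 10.2 on day 35 without the peak that Acta2 and Myh11 had on day 8. Pdlim7 went from 419 ± 49.9 to 58.5 ± 14.5 and filamin A, Flna, which crosslinks actin, from 1212 ± 108 to 90.6 ± 21.9.

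Among transcription regulators of the smooth muscle programme, 1 of 14 tested genes fell and none rose from day 0 to day 8, beside 2.54% and 3.17% of all genes, with 2 lower and 4 higher at an unadjusted p under 0.05 by limma. By day 35, 9 were lower than on day 0 and 3 higher, beside 27.6% and 27.1% of all genes. Myocd, which encodes myocardin, had 135 ± 28.1 on day 0, 202 ± 23.5 on day 6, 80.4 ± 15.6 on day 14 and 4.95 ± 0.354 on day 35, the widest range of the list. Srf, serum response factor, went from 165 ± 8.39 at birth to 225 ± 7.83 on day 10 and then to 75.1 ± 4.34 on day 35, a difference of −1.06 ± 0.19 between days 0 and 35. Of the 2 myocardin-related factors, Mrtfb went from 499.8 ± 37.6 to 207 ± 1.13 between days 0 and 35 (−1.24 ± 0.10) and Mrtfa from 132 ± 3.96 to 241 ± 11.2 (0.83 ± 0.14), the latter under the 2-fold minimum. Tead1 fell by day 14 already, from 343 ± 12.6 on day 8 to 141 ± 10.3. Klf4, a factor that restrains the smooth muscle programme, was among the 3 that stood higher on day 35, with 358 ± 28.6 on day 20 and 1074 ± 16.8 on day 35. Klf5 went from 85.4 ± 1.23 to 309 ± 32.8 in the same interval. Neither the cells behind these values nor a link to the levels of the members was tested.

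Of 21 signals and receptors of peritubular cells, 1 rose and 4 fell from day 0 to day 8, beside 3.17% and 2.54%. From day 8 to day 14 the count was 1 higher and 6 lower, beside 5.34% and 2.4%. Dhh, the hedgehog ligand that Sertoli cells send to peritubular and Leydig cells, went from 1238 ± 49.3 on day 8 to 442 ± 39.7 on day 14 (−1.47 ± 0.10). Its receptor gene Ptch1, itself a target of the pathway, went from 1865 ± 22.5 on day 0 to 1029.9 ± 180.0 on day 14 and 73.0 ± 19.6 on day 35, and Gli1, another target, fell from 142 ± 30.3 on day 8 to 61.7 ± 5.04 on day 14. Pdgfra, a receptor of platelet-derived growth factor, went from 2479 ± 56.6 on day 0 to 104 ± 49.5 on day 35. Tgfb3 rose from 96.7 ± 11.2 on day 0 to 210.2 ± 14.2 on day 8 (1.06 ± 0.19). Edn1, the contractile peptide endothelin, had 222 ± 26.1 on day 8 and 59.8 ± 2.53 on day 14, while the receptor gene Ednrb had 93.6 ± 1.79 and 77.2 ± 23.6. Avpr1a, a vasopressin receptor, rose from 18.9 ± 2.46 to 57.3 ± 12.3 between those days. By day 35, 16 of the 21 stood lower than on day 0 and 2 higher, beside 27.6% and 27.1%.

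Of the non-muscle counterparts, none of 13 tested genes rose or fell from day 0 to day 8, beside 3.17% and 2.54%, with 1 higher and 7 lower at an unadjusted p under 0.05 by limma and a median of −0.23. Cnn3, the calponin of non-muscle cells, went from 4289 ± 284 at birth through 3084 ± 19.2 at day 8 to 158 ± 14.6 at day 35, beside the rise of Cnn1 from 24.5 to 130.4 over the first 8 days. Tpm4, a non-muscle tropomyosin, went from 1904 ± 19.8 on day 0 to 1064 ± 44.4 on day 8 (−0.84 ± 0.13, adjusted p = 0.000137 by limma) and 111 ± 27.0 on day 35. Myh9, a non-muscle myosin heavy chain, had −0.76 ± 0.14 from day 0 to day 8, where Myh11 had 1.76 ± 0.16. The cytoplasmic actin genes Actb (−0.50 ± 0.072 from day 0 to day 35) and Actg1 (−0.27 ± 0.057) had an adjusted p of 9.96e-07 and 0.00136 in limma's time course test, but their day means spanned only 0.57 and 0.27 on the log2 scale, under the 2-fold minimum.

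Markers of vessel cells and of striated muscle were read from the same arrays. Of 8 mural cell markers none rose and 1 fell from day 0 to day 8 (0 and 5 at an unadjusted p under 0.05 by limma), beside 3.17% and 2.54% of all genes, with a median of −0.62. On day 35 against day 0, 6 stood lower and 1 higher, beside 27.6% and 27.1%, with a median of −1.88. The one that stood higher was Ndufa4l2, with 57.7 ± 1.62 on day 0 and 257 ± 33.3 on day 35 (2.01 ± 0.25). Rgs5, the pericyte gene, went from 402 ± 36.0 at birth to 296 ± 25.4 on day 8 and then to 57.0 ± 4.20 on day 35, and Mcam had 131 ± 7.27 on day 14 and 24.6 ± 2.04 on day 20. The summed intensity of the 8 genes lay between 1249 and 1382 on the arrays of day 0, between 857 and 932 on day 8 and between 517 and 531 on day 35. Of 12 endothelial markers none rose and 1 fell from day 0 to day 8 (0 and 7 at an unadjusted p under 0.05, median −0.71), beside 3.17% and 2.54%, and their sum went from between 1346 and 1481 to between 870.3 and 913. On day 35 against day 0, 8 of the 12 were lower and none higher (9 and 0 at an unadjusted p under 0.05 by limma), beside 27.6% and 27.1%, with a median of −1.47. Over that span 7 of the 10 members' main probe sets fell, with a median of −1.27, so both vessel lists and the members had negative medians. The sums of mural and endothelial markers were lower on both arrays of day 8 than on both of day 0. The part of vessel cells in the values of the members was not tested.

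Of 19 tested striated muscle markers none rose and 3 fell from day 0 to day 8, beside 3.17% and 2.54% of all genes (1 and 9 at an unadjusted p under 0.05 by limma, median −0.78). Their sum over 20 genes lay between 824 and 855 on the arrays of day 0 and between 375 and 418 on day 8. Tnni1, slow troponin I, led them with 288 ± 7.34 on day 0 and 12.3 ± 11.4 on day 14, and Ckm, muscle creatine kinase, had 11.6 ± 0.454 on day 0 and 88.9 ± 26.7 on day 35. Their part in the values of Des, Tpm1 and Tpm2, which striated muscle also expresses, was not tested. Fibroblast and matrix markers had 2 of 12 higher and 2 lower on day 8 than on day 0, beside 3.17% and 2.54% (median −0.37). Their sum lay between 24859.5 and 26533 on day 0, between 19693 and 20369 on day 8 and between 1891 and 2088 on day 35. Col1a1, a chain of type I collagen, went from 2885 ± 239 on day 0 to 20.7 ± 7.77 on day 35. On day 35 against day 0, 9 of the 12 were lower and 1 higher, beside 27.6% and 27.1%, and their median was −3.83, where that of the members was −1.27. The difference between the lists was not tested.

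Sertoli cell markers, whose cells lie inside the same tubule wall, had 3 of 12 higher and 1 lower on day 8 than on day 0, beside 3.17% and 2.54% (median 0.37), and a median of −1.41 on day 35 against day 0. The day 35 comparison had 8 of the 12 lower and 3 higher, beside 27.6% and 27.1% of all genes. Amh, anti-Müllerian hormone of immature Sertoli cells, fell from 734 ± 70.2 on day 0 to 10.2 ± 2.34 on day 35 (−5.36 ± 0.28), and Gata4, a transcription factor of the somatic cells, fell from 746 ± 13.5 to 74.9 ± 30.2 (−3.24 ± 0.18). Cldn11, a tight junction gene, was among the 3 that stood higher (2.09 ± 0.13) and went from 85.5 ± 25.1 on day 0 to 1120.2 ± 86.4 on day 14 and 382 ± 21.6 on day 35. The summed intensity of the 12 Sertoli cell markers lay between 19444 and 20044.8 on day 0 and between 23252 and 24098 on day 8. That of the 10 members' main probe sets lay between 7049.5 and 7380.9 and then between 10341 and 11083 on these days. Both sums were thus higher on day 8. On day 35 the Sertoli sum lay between 9638 and 10030.1 and that of the members between 3971 and 4274. From day 8 to day 35 the sum of the 10 germ cell markers went from between 771 and 779.7 to between 56554 and 63020.4. Of those 10 germ cell genes all stood higher on day 35 than on day 0, beside 27.1% of all genes. Of 6 Leydig cell markers 4 fell and none rose from day 0 to day 8 (6 and 0 at an unadjusted p under 0.05 by limma), beside 2.54% and 3.17%, and of 4 tested epididymis markers none was called in that interval (0 also at an unadjusted p under 0.05), beside 3.17% higher and 2.54% lower over all genes. On day 35 against day 0, over which Actg2 rose, 3 of the 4 epididymis markers stood higher and 1 lower, beside 27.1% and 27.6%, with a median of 1.2. Rnase10 went from 15.9 ± 2.22 to 57.7 ± 4.36 (1.47 ± 0.42), while Defb42 fell from 223 ± 1.57 to 18.3 ± 10.8 (−3.21 ± 0.34). Lcn5 went from 1.82 ± 0.922 to 13.6 ± 1.89 (1.15 ± 0.40). Its day 0 mean lay under the added constant of 7.84. Its day 35 mean lay near the 20th percentile of the day 35 arrays, 10.1 and 10.8. This comparison crosses the step in low values. The summed intensity of the 6 epididymis genes on the array lay between 279.6 and 281 on day 0 and between 146.1 and 168 on day 35. The array has no true zero, and no marker of any list read 0. The part of these cell types in the values of the members was not tested.

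**Figure D4:**
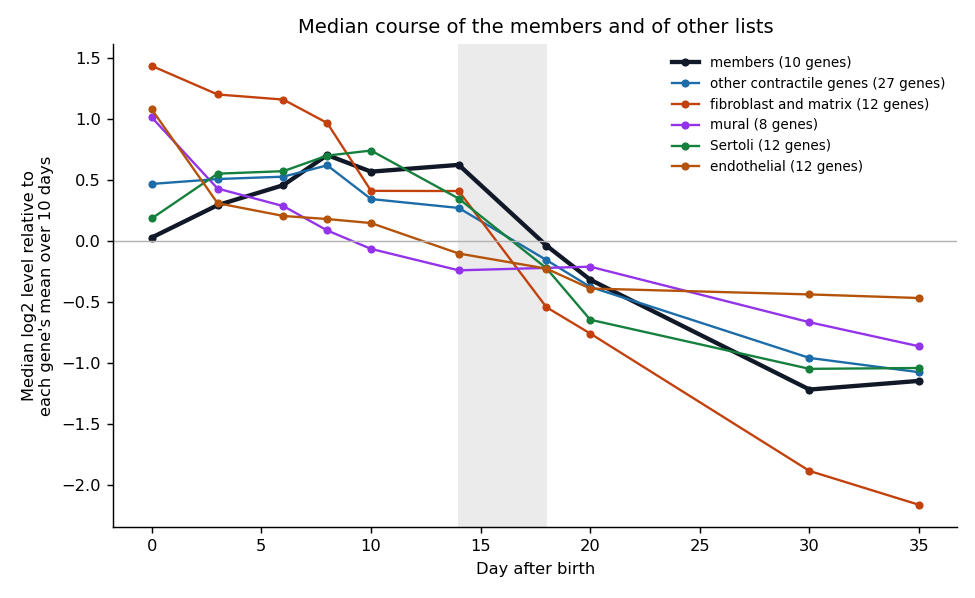
Median log2 level of the tested genes of each list, relative to the mean of each gene over the 10 days, against day after birth: the 10 members (black) and 5 other lists in colour, with 1 point a day from the means of 2 arrays. The members stand at 0.029 on day 0 and 0.70 on day 8. Over the same days the Sertoli list also rises, from 0.19 to 0.70, and the other contractile genes go from 0.47 to 0.62. The mural list goes from 1.01 to 0.087, the endothelial list from 1.08 to 0.18 and the fibroblast list from 1.43 to 0.97.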

How the data were processed

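Testis RNA had been isolated with Trizol, and a one-cycle kit for 3' arrays introduced the biotin label, per the labels' protocols. The authors deposited linear intensity values, 1 for each probe set on each array. Which program summarized the probes was not named in the labels. The 2% trimmed mean of the deposited intensity was the same on all 20 arrays, and no further normalization was applied.

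64 control probe sets were set aside. The platform annotation gives 34945 probe sets 1 symbol, 932 several and 9160 none. Symbols were updated through Entrez identifiers (34741 matched in a RefSeq table, GRCm38.p6). The main probe set of a gene has its highest mean log2 level. A probe set was tested if it exceeded percentile 40 of the array at least 2 times, which left 37292 in all and 19 of the 22 members.

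A constant of 7.84, the pooled 20th percentile of the deposited intensity, was added before taking log2. limma 3.58.1 in R 4.3.3 (lmFit, eBayes with trend) fitted day as a factor of 10 levels, with 10 residual and 9.37 prior degrees of freedom. Tests were two-sided, the 5 comparisons share arrays, and the fit was tested on simulated data. Members, lists and comparisons were chosen with earlier results of these data known. All members were named, as were up to 3 genes of widest range per other list that passed the time course test and any gene of the regulator, signal, non-muscle and mural lists, besides the 8 genes most like the members. Alternatives changed the scaling, constant, filter, probe sets, variance model, arrays and threshold. Figures used matplotlib 3.10.9.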

Additional observations from a re-analysis of the deposited data

How the results depend on the processing

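No called difference of a member probe set changed its sign under any alternative run, and the rise of Actg2 after day 20 was called in all 35 of its alternatives (3.00 to 3.39). Each day had only 2 arrays. The cause of each move below was not tested unless the setting itself tests fewer features or arrays. Of 1 member probe set that fell from day 8 to day 14, 0 did so under quantile normalization, with the constant at the 5th or 40th percentile (1.58 or 21.6), under the floor at the pooled median, with no trend and at an adjusted p under 0.01. Scaling to 1 median gave 6814 fallers among all probe sets from day 14 to day 20 (4492 otherwise). The constant at the 5th percentile gave 1 member higher there (0). The constant at the 40th percentile gave over all probe sets 581 higher (913) and 582 lower (903) on day 8 against 0, 444 lower (782) on day 14 against 8, 3501 higher (5467) and 2910 lower (4492) on day 20 against 14, and 1372 lower (2714) on day 35 against 20, and 1 member higher (2) on day 35 against 0. The floor gave 2776 higher (5467) on day 20 against 14, 1 member higher (2) on day 35 against 20, and 1 member (2) and 5028 in all (8539) higher on day 35 against 0. The mean over all probe sets of a gene gave 1 member gene lower (4), 2 (4) and 3 (7) on day 20 against 14, 35 against 20 and 35 against 0, and 621 genes lower in all (1179) on day 35 against 20. At an adjusted p under 0.01, 0 members (1) and 505 in all (903) were lower on day 8 against 0, and 503 in all (782) on day 14 against 8. With no minimum fold, members were 10 higher (5) on day 8 against 0, 1 higher (0) and 3 lower (1) on day 14 against 8, 1 higher (0) and 13 lower (8) on day 20 against 14, and 12 lower (7) on day 35 against 20. In all, that setting gave 3035 higher (913) and 2487 lower (903), 3307 higher (1440) and 2881 lower (782), then 9680 lower (4492) and 9100 lower (2714) in those comparisons. On days 0 to 14 only, 6 members (17) and 6521 in all (27243) passed the time course, and on days 18 to 35 only, 11656 in all. Leaving out 1 array at a time gave 4 to 6 members higher, 0 to 1 lower and 502 to 982 lower in all on day 8 against 0. It gave 0 to 1 lower and 507 to 836 lower in all on day 14 against 8, 0 to 1 higher on day 20 against 14, and 1 to 5 higher on day 35 against 0. The arrays of different days share only a replicate number: over 45 pairs of days the difference of replicate 1 and 2 correlated at −0.019 to 0.073, with 0 pairs over 0.1. With the replicate number as a block the member counts were 5 higher and 1 lower, 0 and 1, 0 and 8, 2 and 7, and 2 and 11 over the 5 comparisons, and 17 in the time course.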
